A study of Mus musculus with 17 samples.

Results

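Marrow of mice given a wild-type graft was compared with marrow of untransplanted mice, both with an intact Pig-a gene. The members are 7 of the 17 arrays of the series, chosen by their sample titles: 3 arrays of GPI+ cells from C57BL/6 recipients of wild-type marrow (called recipients below) and 4 arrays of GPI+ cells from wild-type C57BL/6 mice, all in the second of the study's 2 batches. GPI+ cells are those that bound a fluorescent antibody mixture against CD24, CD48 and Gr-1, which a lipid anchor, glycosylphosphatidylinositol (GPI), fixes to the membrane, and they were separated on a cell sorter from marrow of femurs and tibias. The series as a whole concerns GPI-deficient marrow of Pig-a knock-out mice, in which the first step of anchor synthesis is lost. In the labels, 9 Gy of total body irradiation is described for mice given knock-out marrow that had been kept with 10 nM aerolysin, a bacterial toxin to which cells with GPI anchors are sensitive, for 30 minutes. Whether the recipients of wild-type marrow had the same irradiation, whether their graft met the toxin, how long after the graft marrow was taken, and the age and sex of the mice are not stated in the labels. Donor and host were both C57BL/6 and no marker that separates them is named, so cells of the graft and cells the host still had cannot be told apart. The titles call the arrays biological replicates without naming animals, so p-values here reflect only how much single arrays spread, which may be technical. That spread was estimated for each gene over all 17 arrays of the series, also those of groups not compared here. An SE, and a call or its absence, therefore need not match the spread within the groups compared.

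Blood forms in the marrow from stem and progenitor cells, and after a graft the donor progenitors refill each lineage. Neutrophil precursors fill their granules in order: the proteases of the primary granules are made at the promyelocyte stage, and the contents of the secondary and tertiary granules later. Red cell precursors import iron into mitochondria to build heme and mature around resident macrophages that clear the nuclei they expel. Interferons, which marrow cells sense at a low level even without infection, act on a large group of genes with antiviral roles.

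Total RNA was measured on Affymetrix arrays with 45101 probe sets. The deposited values lie on a log10-like scale that ran from 0 to 3.895 in this batch with a median of 0.387, and values of single arrays below are on that scale. Differences between the groups are on the log2 scale, as recipients minus wild type, with the standard error (SE) of a limma fit. A gene was called when its p-value, adjusted by Benjamini-Hochberg over all 14245 genes tested, was under 0.05. Since the values flatten towards 0, differences of genes near the floor are approximate. In these bulk samples, fewer cells of a type and less RNA per cell cannot be told apart.

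Of the 14245 genes, 120 (0.842%) were called: 64 (0.449%) rose in recipients and 56 (0.393%) fell. The changes were moderate in size. The median rise among called genes was 1.5-fold (range 1.31 to 3.92) and the median fall 1.62-fold (range 1.36 to 3.17). Only 7 genes (0.0491% of those tested) rose and 9 (0.0632%) fell by at least 2-fold. Without regard to the test, the 3 recipient arrays lay wholly outside the range of the 4 wild-type arrays for 1978 genes (13.9%), above it for 1144 (8.03%) and below it for 834 (5.85%). Every one of the 120 called genes was among these. The count of calls rested heavily on single arrays: without recipient replicate 1 it was 9 higher and 12 lower, without recipient replicate 2 it was 23 and 32, and without recipient replicate 3 it was 46 and 31. Leaving out wild-type replicate 1, 2, 3 or 4 gave 16, 30, 45 and 31 higher and 13, 30, 44 and 26 lower. For 15 of the called genes the call held in all 7 of these fits.

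**Figure D1:**
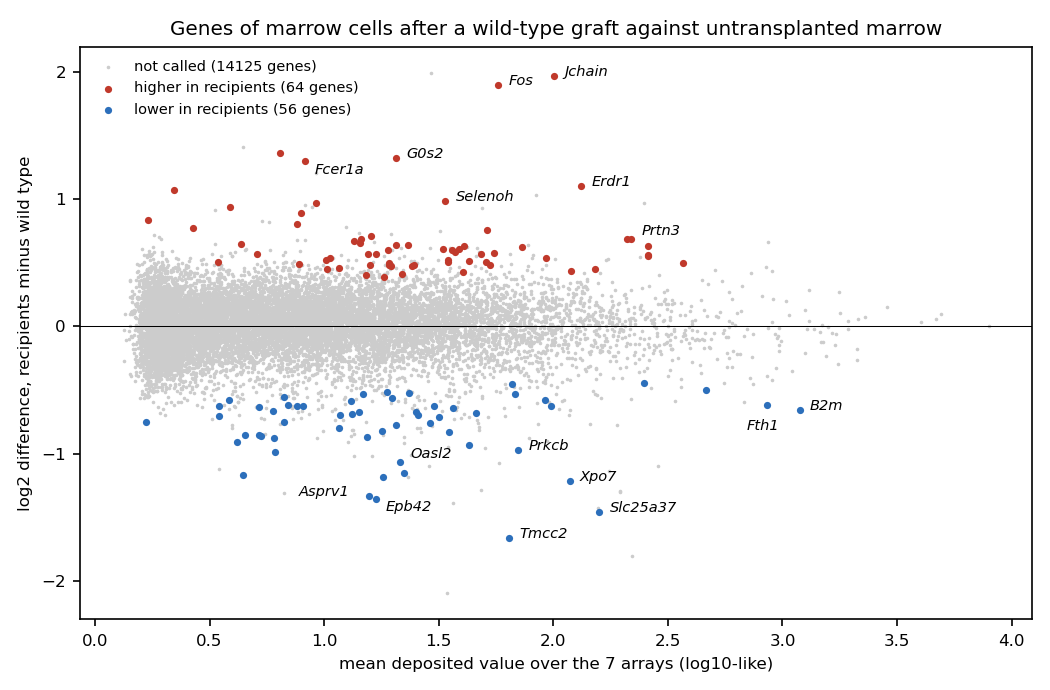
Each point is a gene, placed by its mean deposited value over the 7 arrays (horizontal axis, log10-like) and its log2 difference between recipients and wild type (vertical axis). Red points are the 64 genes that rose and blue points the 56 that fell, most of them by less than 2-fold, and Jchain, Fos, Slc25a37 and Tmcc2 lie farthest from 0 among the called genes.

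The first principal component of the 7 arrays, with 30.3% of the variance, separated the groups, at -19.2, -11.5 and -14.6 in recipients and from 7.46 to 15.3 in wild type. The second, with 20.4%, set recipient replicate 1 (16.4) and recipient replicate 3 (-22.3) apart from each other. A measure of RNA quality differed between the groups without overlap: the signal at the 3' end of the Actb control minus that at its 5' end was 1.134, 1.508 and 1.124 (log2) in recipients and from 0.7811 to 1.01 in wild type. An exact two-sided permutation test gave p = 0.02857, the smallest that 35 splits allow, or 0.0762 after adjustment over 4 measures of array quality. The slope of the added hybridization controls over their concentrations did not overlap either. It was 1.118, 1.1 and 1.132 in recipients and 1.202, 1.208, 1.184 and 1.141 in wild type (exact permutation p = 0.05714, adjusted 0.0762). On the arrays of recipients of knock-out marrow the slope was from 1.119 to 1.14. Its part in the results was not tested. The 3' minus 5' measure of the Gapdh control averaged -0.631 in recipients and -0.925 in wild type (exact permutation p = 0.05714, adjusted 0.0762). Here the groups overlapped, with recipient replicate 3 at -0.8783 and wild-type replicate 4 at -0.8445. The mean correlation of an array with the others of its own group was from 0.9813 to 0.9843 in recipients and from 0.9876 to 0.9881 in wild type. With the Actb measure as a covariate, an alternative chosen after seeing the data, 53 genes were called higher and 107 lower, and 58 of the 120 calls were kept. Among the genes described below, that fit lost the calls of Jchain, Fcer1a, Ms4a3, Calr, Siglech, Irf7, Irgm1, Ifi213, B2m, H2-T24, H2-Ob, Fcer2a, Fth1, Hpgd, Mrpl18, Mrps28, Mrps21, Fh1, Dad1, Psma8, 1700006J14Rik, Irs1, Pmaip1, Tlr1, Rfc1 and Shisa5, and kept those of the other called genes named. The part of RNA quality in the results was not tested beyond this. Averaging all probe sets of a gene in place of taking the brightest kept 71 of the 120 calls. Among the genes described below that have several probe sets, it ended the calls of Cpox, Epb42, Xpo7, Hpgd, Rtp4, Ddx58, Ifi213, B2m, Fcer2a, Calr, Mrps21, Samm50, Shmt2, Ide, Dnaja4, Cat, Skp2, Rfc1 and Shisa5. Xist read from 2.26 to 2.462 on the 7 arrays while the Y-linked genes Eif2s3y, Kdm5d and Uty stayed near the floor on all of them, so the groups did not differ in sex by these genes. Piga, which encodes the catalytic subunit of the first enzyme of anchor synthesis, stood at 1.195, 1.233 and 1.164 in recipients and 1.18, 1.212, 1.25 and 1.238 in wild type, and its difference was -0.07 ± 0.15 (limma, adjusted p = 0.88). Of the sort markers, Cd24a differed by -0.18 ± 0.14 (adjusted p = 0.61) and Cd48 by 0.16 ± 0.13 (adjusted p = 0.65). The other probe sets of Cd24a were lower in recipients by more, at -0.524 and -0.228, and were not tested on their own. The Ly6c1 and Ly6c2 transcripts, 2 of the Ly6 proteins related to the Gr-1 antigen, share a probe set that averaged 2.92 in recipients and 2.89 in wild type and was not tested.

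Genes of heme synthesis and iron handling gave 3 calls, all lower in recipients. Of 16 tested, 3 fell and none rose, where 0.393% of all genes fell, and the median difference was -0.454 against 0.023 over all genes. Of 20 tested erythroid genes 1 fell, with a median of -0.374, and only 3 of the 20 had a positive difference. The mean log2 value over the heme and iron list was 4.9, 5.049 and 5.135 in recipients and 5.594, 5.342, 5.474 and 5.716 in wild type, without overlap, and over the erythroid list 4.78, 5.042 and 5.254 and 5.596, 5.235, 5.567 and 5.751, with recipient replicate 3 just above wild-type replicate 2. Slc25a37 (mitoferrin-1, which brings iron into the mitochondria of erythroblasts) read 1.852, 2.011 and 1.99 in recipients and 2.498, 2.228, 2.444 and 2.39 in wild type. All 3 recipient arrays were below all 4 wild-type arrays, and the fall was 2.75-fold (log2 difference -1.46 ± 0.29, adjusted p = 0.02). Cpox, the heme enzyme that oxidises coproporphyrinogen, read 1.08, 1.188 and 0.887 against 1.439, 1.425, 1.374 and 1.4, with recipient replicate 3 the lowest, and fell 2.28-fold (-1.19 ± 0.24, adjusted p = 0.024). Its 2 other probe sets lay at -0.121 and -0.089, and the mean of all 3 was not called (-0.466, adjusted p = 0.21). Fth1, the heavy chain of the iron store ferritin, fell by a smaller amount, from 3.133, 3.029, 2.922 and 2.959 to 2.837, 2.791 and 2.849 (-0.61 ± 0.13, adjusted p = 0.03). Epb42 (protein 4.2 of the red cell membrane skeleton) was at 0.863, 1.023 and 1.084 in recipients and 1.444, 1.265, 1.381 and 1.5 in wild type, a fall of 2.56-fold (-1.35 ± 0.32, adjusted p = 0.047).

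These 4 calls differed in how far they depended on 1 array. The call of Epb42 was lost without each of the 7 arrays in turn (adjusted p = 0.056 to 0.2), that of Slc25a37 without recipient replicate 1 or wild-type replicate 1 (adjusted p = 0.078 to 0.11), that of Cpox without recipient replicates 1 or 3 or wild-type replicates 1, 2 or 4 (adjusted p = 0.053 to 0.11) and that of Fth1 without recipient replicates 1, 2 or 3 or wild-type replicates 1 or 2 (adjusted p = 0.061 to 0.12). Other members of the lists had differences as large that did not pass the test. Alas2, the enzyme of the first step of heme synthesis in red cells, differed by -1.81 ± 0.50 (adjusted p = 0.086), with 1.788, 2.182 and 2.122 in recipients and 2.695, 2.399, 2.544 and 2.664 in wild type. Trim10, a factor of late erythroblasts, differed by -1.29 (adjusted p = 0.081), the anion exchanger Slc4a1 (band 3) by -1.09 (adjusted p = 0.11), ferrochelatase (Fech), which inserts the iron, by -1.13 (adjusted p = 0.15), and the blood group proteins Kel and Rhd by -0.87 and -0.82 (adjusted p = 0.19 and 0.25). In 9 of the 20 erythroid genes the arrays of the groups did not overlap, against 13.9% of all genes. Of the regulators and receptors of red cell precursors, Gata1 differed by -0.11 (adjusted p = 0.91), Epor, the erythropoietin receptor, by -0.36 (adjusted p = 0.38), Tfrc, the transferrin receptor, by -0.31 (adjusted p = 0.52), and Car1, a carbonic anhydrase, by 0.43 (adjusted p = 0.35). The probe set tested for the globin gene Hba-a1 read from 0.182 to 0.384 on the 7 arrays, near the floor, and says nothing of globin levels. Outside the lists, 2 genes known for high transcription in late red cell precursors, Tmcc2 and Xpo7, fell too. Tmcc2, which encodes a membrane protein, fell 3.17-fold, from 2.125, 1.795, 2.012 and 2.166 to 1.341, 1.516 and 1.712 (-1.67 ± 0.33, adjusted p = 0.021), and the call was lost without recipient replicates 1 or 2 or wild-type replicates 1 or 4 (adjusted p = 0.065 to 0.13). Xpo7, a nuclear export receptor, fell 2.33-fold (-1.22 ± 0.24, adjusted p = 0.02). Of its 5 other probe sets 3 went the same way, and the call was lost when all were averaged (adjusted p = 0.14) and without recipient replicates 1 or 2 or wild-type replicates 1 or 4 (adjusted p = 0.058 to 0.12).

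**Figure D2:**
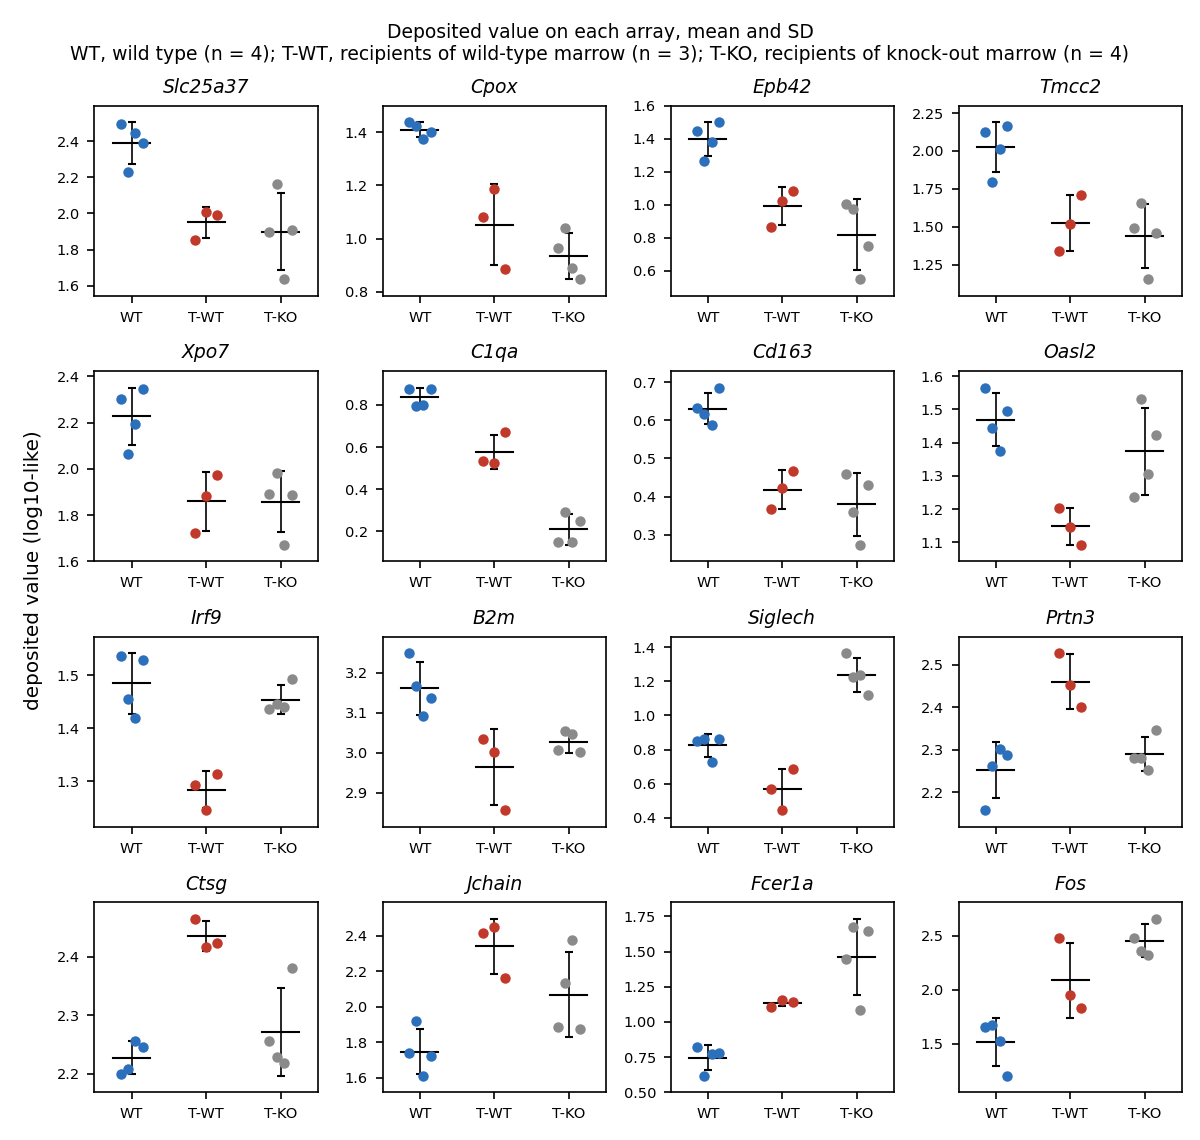
Deposited values (vertical axes, log10-like) of 16 genes on each array of wild-type mice (WT), recipients of wild-type marrow (T-WT) and, for reference, recipients of knock-out marrow (T-KO); bars are the mean and SD. In each of the 16 genes the 3 T-WT arrays lie wholly above or below the 4 WT arrays, and in Slc25a37 they lie from 1.852 to 2.011 against 2.228 to 2.498 in WT.

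Marker genes of marrow resident macrophages, cells that nurse erythroblasts and recycle their iron, gave 3 calls, all lower. Of 21 tested, 3 fell, against 0.393% of all genes, and none rose, the median difference was -0.331, and only 2 had a positive difference. C1qa, a chain of the complement protein C1q, read 0.534, 0.526 and 0.671 in recipients and 0.875, 0.794, 0.798 and 0.878 in wild type (-0.86 ± 0.16, adjusted p = 0.014). Its partner chains C1qc and C1qb differed by -0.62 and -0.46 (adjusted p = 0.083 and 0.11), with no overlap of the groups in either. Cd163, the receptor that takes up haemoglobin bound to haptoglobin, read 0.366, 0.421 and 0.467 against 0.631, 0.616, 0.588 and 0.686 (-0.70 ± 0.15, adjusted p = 0.03). Hpgd, which breaks down prostaglandins, read 0.435, 0.515 and 0.576 against 0.819, 0.688, 0.725 and 0.831 (-0.85 ± 0.20, adjusted p = 0.04). All 3 genes were dim, which makes their fold changes approximate. Leaving out arrays ended the call of C1qa without recipient replicates 1 or 2 or wild-type replicate 1 (adjusted p = 0.066 to 0.099), of Cd163 without recipient replicates 1 or 2 or wild-type replicates 1, 2 or 4 (adjusted p = 0.059 to 0.15) and of Hpgd without each of the 7 arrays in turn (adjusted p = 0.05 to 0.18). Vcam1, an adhesion molecule of these macrophages, differed by -0.28 (adjusted p = 0.22), Spic, their transcription factor for iron recycling, by -0.38 (adjusted p = 0.2), and Hmox1, which degrades heme, by -0.73 (adjusted p = 0.18). The pan-macrophage marker Adgre1 (F4/80) and the sialic acid receptor Siglec1 lay near 0, at -0.04 and -0.06. C1qa was also the only one of 14 tested complement genes that was called.

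Interferon-stimulated genes, the list with the most genes tested, gave 6 calls, all lower. Of 35 tested, 6 fell and none rose, against 0.393% and 0.449% of all genes, only 3 had a positive difference, and the median was -0.395. In 14 of the 35 the arrays did not overlap, against 13.9% of all genes. The mean log2 value over the list was 3.935, 3.818 and 3.839 in recipients and 4.469, 4.155, 4.1 and 4.432 in wild type, where replicates 1 and 4 stood above replicates 2 and 3. Irf9, the DNA-binding part of the interferon-activated complex, read 1.293, 1.245 and 1.313 in recipients and 1.536, 1.456, 1.419 and 1.53 in wild type, a fall of 1.59-fold (-0.67 ± 0.11, adjusted p = 0.0079). Irf7, the factor that amplifies interferon production, read 0.967, 0.924 and 0.889 against 1.294, 1.092, 1.039 and 1.242 (-0.80 ± 0.18, adjusted p = 0.039). Oasl2, of the family of sensors of double-stranded RNA, had the largest fall among the called genes of the list, 2.1-fold, from 1.566, 1.443, 1.375 and 1.494 to 1.204, 1.147 and 1.093 (-1.07 ± 0.19, adjusted p = 0.0087). Rtp4, a chaperone of receptors that interferon induces, fell by 0.93 ± 0.18 (adjusted p = 0.016), but its other probe set went the other way, and the mean of both was not called (adjusted p = 0.11).

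The remaining calls were Irgm1, a guanosine triphosphatase of immunity inside cells (-0.53 ± 0.12, adjusted p = 0.04), and Ddx58 (RIG-I, a sensor of viral RNA; -0.52 ± 0.11, adjusted p = 0.032). Irf9 and Oasl2 were called in all 7 fits that left out an array. Calls were lost for Irf7 without recipient replicates 1, 2 or 3 or wild-type replicates 1 or 4 (adjusted p = 0.1 to 0.13) and for Rtp4 without recipient replicate 3 or wild-type replicate 1 (adjusted p = 0.072 to 0.073). Irgm1 was called in 2 of the 7 (adjusted p up to 0.18) and Ddx58 in 1 of the 7 (up to 0.15), without recipient replicate 1 in neither. Several members had similar differences without passing: Rsad2 (viperin) differed by -1.30 (adjusted p = 0.1), Ifit1 by -0.77 (adjusted p = 0.076), Usp18, which restrains the interferon receptor, by -0.69 (adjusted p = 0.076), and Stat2 by -0.46 (adjusted p = 0.06). Others lay near 0, among them Mx1 at 0.05, Irf1 at 0.11, Ifih1 at -0.08 and Bst2 at -0.10. Outside the list, and named here after their values were seen, Trim30d (-0.82 ± 0.14, adjusted p = 0.0087) and Ifi213 (-0.67 ± 0.14, adjusted p = 0.028) fell. Both belong to clusters of near-identical genes whose probes can share transcripts, so which copy was measured is uncertain. Ifi213 lost its call in 5 of the 7 fits (adjusted p up to 0.16), and Trim30d kept it in all 7 (adjusted p up to 0.043).

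The promoters of the genes that fell were searched for the core letters of the interferon-stimulated response element, GAAA followed by any 2 bases and GAAA again, on either strand, in the 250 bases before the start. The 4 matches among 43 genes with a RefSeq promoter that fell (9.3%) are shown, since they are all the places where genes that fell carry these letters. The share was 6.0% (3 of 50) among genes that rose and 3.2% (367 of 11464) among all genes tested. Among the interferon-stimulated genes it was 46.2% (12 of 26), but only 1 of 5 in those that fell. The sequences are from RefSeq on assembly GRCm38.p6, read 5′ to 3′ in the direction of the gene, with the matching letters in capitals. They lie at chr11:48871421-48871480 (minus strand) for Irgm1, chr2:122147518-122147587 (plus strand) for B2m, chr1:173599306-173599375 (minus strand) for Ifi213 and chr7:104507851-104507920 (minus strand) for Trim30d.
Irgm1: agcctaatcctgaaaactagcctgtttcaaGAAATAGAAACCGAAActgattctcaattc
B2m: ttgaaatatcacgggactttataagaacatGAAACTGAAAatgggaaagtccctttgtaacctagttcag
Ifi213: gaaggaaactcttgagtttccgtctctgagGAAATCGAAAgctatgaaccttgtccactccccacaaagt
Trim30d: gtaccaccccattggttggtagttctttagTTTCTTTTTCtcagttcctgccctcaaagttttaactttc
In Irgm1 there were 2 overlapping matches, which began 30 and 24 bases before the start. In B2m, Ifi213 and Trim30d there was 1 match each, which began 139, 73 and 41 bases before the start, and in Trim30d it was on the opposite strand, so that the capitals show its complement. A match describes the letters only, and binding was not measured.

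Dendritic cell genes gave 2 calls, both lower in recipients. Of 19 tested, 2 fell, against 0.393% of all genes, and none rose, the median was -0.357, and only Batf3 had a positive difference, 0.22 (adjusted p = 0.73). The list mean was 2.605, 2.663 and 2.722 in recipients and 3.116, 3.08, 2.929 and 3.056 in wild type. The called members were Irf7, which is also in the interferon list, and Siglech, a surface lectin of plasmacytoid dendritic cells, the main makers of type I interferon. Siglech read 0.569, 0.444 and 0.687 in recipients and 0.848, 0.861, 0.725 and 0.863 in wild type (-0.86 ± 0.19, adjusted p = 0.031), and lost the call without recipient replicates 1 or 2 or wild-type replicates 1, 2 or 4 (adjusted p = 0.077 to 0.16). Ccr9, a chemokine receptor of the same cells, differed by -0.85 (adjusted p = 0.069), and Spib, one of their transcription factors, by -0.42 (adjusted p = 0.23). Tcf4, their master regulator, was at -0.19 (adjusted p = 0.57), and Xcr1 and Zbtb46, which mark conventional dendritic cells, were at -0.11 and -0.07.

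**Figure D3:**
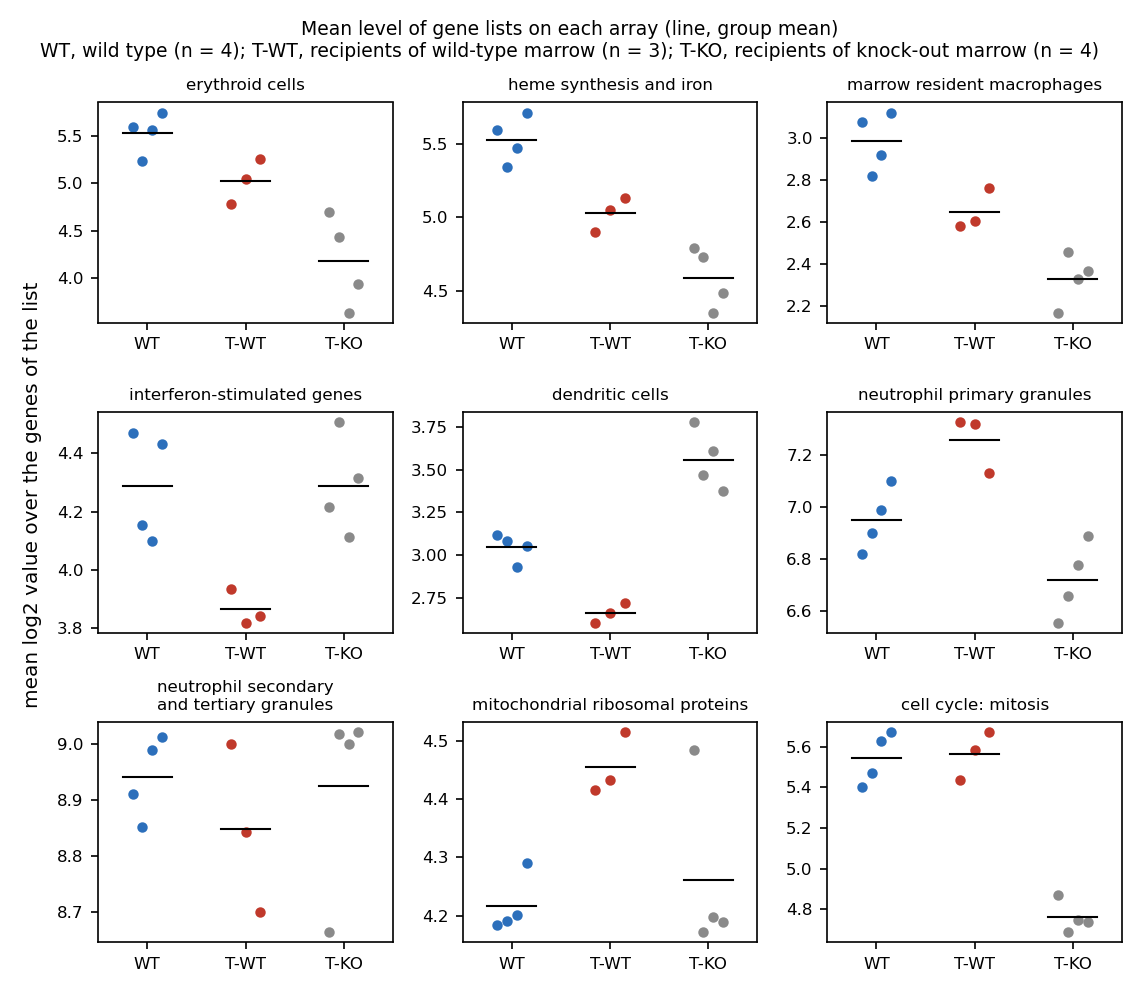
Mean log2 value over the tested genes of 9 lists (vertical axes) on each array of wild-type mice (WT), recipients of wild-type marrow (T-WT) and recipients of knock-out marrow (T-KO); the line is the group mean. For interferon-stimulated genes the T-WT arrays lie at 3.935, 3.818 and 3.839, below the WT arrays at 4.469, 4.155, 4.1 and 4.432, while for secondary and tertiary granules and mitosis the groups overlap.

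Antigen presentation and mature B cells gave 1 call in each list, which describes that gene and not the list. B2m, the light chain of MHC class I, was among the brightest genes on the array, at 3.035, 3.003 and 2.856 in recipients and 3.25, 3.168, 3.093 and 3.137 in wild type, and fell 1.57-fold (-0.66 ± 0.16, adjusted p = 0.049). Its other probe set, about as bright, lay at -0.243, and the mean of both was not called (-0.449, adjusted p = 0.076). B2m was the only call among the 11 tested genes of the class I list, whose median was -0.246. Outside the list, and named after its value was seen, the class I gene H2-T24 fell (-0.69 ± 0.16, adjusted p = 0.048). It was called in 1 of the 7 fits with an array left out (adjusted p up to 0.18). The heavy chain genes H2-K1 and H2-D1 differed by -0.30 and -0.25 (adjusted p = 0.19 and 0.31), and as members of a family of near-identical genes they may share probes. Of 9 class II genes, H2-Ob fell (-0.83 ± 0.19, adjusted p = 0.04). It encodes a chain of H2-O, which restrains peptide loading in B cells. The other class II members included H2-Ab1 at 0.28 (adjusted p = 0.56) and Cd74 at -0.22 (adjusted p = 0.64). Among 15 mature B cell genes Fcer2a (CD23) fell, from 0.854, 0.766, 0.788 and 0.775 to 0.557, 0.652 and 0.602 (-0.64 ± 0.15, adjusted p = 0.048), and the list median was -0.32. Cd72 and Ms4a1 (CD20) differed by -0.60 and -0.53 (adjusted p = 0.14 and 0.18). The call of B2m was lost without recipient replicates 1, 2 or 3 or wild-type replicates 1, 2 or 4 (adjusted p = 0.079 to 0.19), that of H2-Ob without recipient replicates 1 or 3 or wild-type replicates 1 or 2 (adjusted p = 0.12 to 0.19) and that of Fcer2a without each of the 7 arrays in turn (adjusted p = 0.072 to 0.19). None of 17 early B cell genes was called. Their median was -0.103, while the surrogate light chain genes Vpreb1 and Igll1, specific to early precursors, were at 0.64 and 0.62 (adjusted p = 0.32 and 0.3).

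The largest rise of all called genes was that of Jchain, which encodes the chain that joins IgM and IgA into polymers and is made by plasma cells. It read 2.414, 2.449 and 2.161 in recipients and 1.738, 1.921, 1.61 and 1.721 in wild type, with recipient replicate 3 the lowest of the recipients, and rose 3.92-fold (1.97 ± 0.33, adjusted p = 0.0087). The call was lost without recipient replicate 1 (adjusted p = 0.064). It was the only call among 14 tested genes of plasma cells and immunoglobulins, whose median was 0.24. The kappa light chain gene Igk read 1.463, 2.415 and 1.547 against 1.11, 1.435, 1.026 and 1.261 (1.99 ± 0.53, adjusted p = 0.081), with recipient replicate 2 the highest of the 7 arrays, and the alpha heavy chain gene Igha differed by 0.97 ± 0.29 (adjusted p = 0.11). In both the groups did not overlap. Sdc1 (CD138), a defining surface marker of plasma cells, was at 0.34 (adjusted p = 0.4), Prdm1, their master regulator, at 0.22 (adjusted p = 0.44), and Mzb1 and Xbp1, which serve antibody secretion, both at -0.03.

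The list of neutrophil primary granules gave 4 calls, all higher in recipients. It also holds genes whose products are not granule contents, among them the called Ms4a3 and Calr. Calr is in the list of endoplasmic reticulum stress as well. Of 12 tested, 4 rose, against 0.449% of all genes, and none fell. The median difference was 0.355, 9 were positive, and Clec5a, Srgn and Igsf6 lay below 0, at -0.29, -0.08 and -0.05. The list mean was 7.324, 7.319 and 7.131 in recipients and 6.818, 6.902, 6.987 and 7.1 in wild type. Ctsg (cathepsin G) read 2.465, 2.417 and 2.424 in recipients and 2.2, 2.209, 2.257 and 2.246 in wild type, and Prtn3 (proteinase 3) read 2.527, 2.452 and 2.399 and 2.157, 2.262, 2.301 and 2.288. The groups did not overlap in either gene, and in Ctsg the gap between them was wider than the range within each. Ctsg rose 1.61-fold (0.69 ± 0.11, adjusted p = 0.0079) and Prtn3 1.61-fold (0.69 ± 0.12, adjusted p = 0.01). Ms4a3, a marker of granulocyte and monocyte progenitors, rose by 0.63 ± 0.14 (adjusted p = 0.031), and Calr, the calreticulin that folds glycoproteins such as myeloperoxidase, by 0.44 ± 0.10 (adjusted p = 0.041). Elane (neutrophil elastase) differed by 0.55 ± 0.14 (adjusted p = 0.064) and Mpo (myeloperoxidase) by 0.32 ± 0.15 (adjusted p = 0.33), both without overlap of the groups. The call of Ctsg held in all 7 fits with an array left out. That of Prtn3 was lost without recipient replicate 1 (adjusted p = 0.09), that of Ms4a3 without recipient replicates 1 or 2 or wild-type replicates 1 or 2 (adjusted p = 0.084 to 0.14) and that of Calr without each of the 7 arrays in turn (adjusted p = 0.059 to 0.14).

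Genes of the later granules gave no call. None of 19 tested genes of the secondary and tertiary granules was called, and their median was -0.059. Ltf (lactoferrin) was at -0.02, Camp (cathelicidin) at -0.06, Mmp9 at -0.04 and the calprotectin chains S100a8 and S100a9 at 0.00 and 0.03, all with adjusted p of at least 0.9. The chemokine receptor Cxcr2 of mature neutrophils had the largest difference, -0.57 (adjusted p = 0.19). Whether the primary list differed more than the later list was not tested. Monocyte genes had no call among 18, with a median of 0.012, and stem and progenitor genes none among 17, with a median of 0.008: Kit was at 0.26 (adjusted p = 0.35) and Cd34 at 0.39 (adjusted p = 0.38).

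Genes of other granulocytes were less uniform. Fcer1a, the ligand-binding chain of the IgE receptor on basophils and mast cells, read 1.109, 1.159 and 1.145 in recipients and 0.82, 0.617, 0.769 and 0.778 in wild type and rose 2.46-fold (1.30 ± 0.29, adjusted p = 0.039). The call was lost without each of the 7 arrays in turn (adjusted p = 0.067 to 0.12), in fits that kept the arrays of the other groups. With only the 7 arrays in the limma fit Fcer1a was called (adjusted p = 0.0015), and with only those of batch 2 it was not (adjusted p = 0.072). Fcer1a was the only call among 12 tested basophil and mast cell genes, whose median was 0.043. Cpa3, a mast cell protease, was at 0.73 ± 0.18 and missed the threshold (adjusted p rounding to 0.05), and the basophil protease Mcpt8 at 0.57 (adjusted p = 0.41), while the mast cell proteases Cma1 and Tpsb2 were at -0.30 and 0.02. Among 8 eosinophil genes none was called, 5 were positive and the median was 0.48. The granule proteins Prg2, Epx and Prg3 differed by 1.04 ± 0.43, 0.96 ± 0.32 and 0.83 ± 0.23 (adjusted p = 0.27, 0.17 and 0.089). Prg2 ranged widely, at 2.065, 2.275 and 1.952 in recipients and 1.548, 1.626, 1.782 and 2.187 in wild type, and the groups overlapped. Ccr3, the eotaxin receptor, Il5ra, the receptor chain for interleukin-5, and Gata1 lay below 0, at -0.36, -0.18 and -0.11.

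Fos, a transcription factor gene that many signals switch on within minutes, rose 3.72-fold, from 1.657, 1.676, 1.52 and 1.202 in wild type to 2.48, 1.949 and 1.826 in recipients (1.90 ± 0.40, adjusted p = 0.027). Recipient replicate 1 was far above the other recipients, and the call was lost without recipient replicate 1 or wild-type replicates 1, 3 or 4 (adjusted p = 0.053 to 0.15). No other of the 24 immediate early genes was called. Dusp1 was at 0.93 (adjusted p = 0.27), and Jun, Junb and Egr1 at -0.10, 0.25 and 0.20 (adjusted p = 0.93, 0.67 and 0.71). Inflammatory chemokines and cytokines had no call among 21, a median of -0.024 and 9 positive differences. The neutrophil attractant Cxcl2 differed by 1.41 ± 0.38 (adjusted p = 0.081), the cytokine Osm by 1.21 ± 0.29 (not called, adjusted p rounding to 0.05) and Ptgs2 (cyclooxygenase-2) by 0.92 ± 0.29 (adjusted p = 0.13), while Tnf was at 0.06 and Il6 at 0.13. The lowest were Il1rn, the interleukin-1 receptor antagonist, at -0.55 (adjusted p = 0.082) and the lymphotoxin chain Ltb at -0.43 (adjusted p = 0.22). Heat shock genes had no call among 12 and a median of -0.023.

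In the list of mitochondrial ribosomal proteins, which translate the genes of the mitochondrial genome, 2 genes were called, both higher. Of 22 tested, 2 rose, against 0.449% of all genes, and none fell, 21 had a positive difference, the median was 0.239, and in 10 the arrays did not overlap, against 13.9% of all genes. The list mean was 4.415, 4.433 and 4.515 in recipients and 4.184, 4.19, 4.201 and 4.291 in wild type. Mrpl18 of the large subunit rose 1.52-fold (0.60 ± 0.13, adjusted p = 0.034), and Mrps28 of the small subunit 1.49-fold (0.57 ± 0.12, adjusted p = 0.03). The call of Mrpl18 was lost without each of the 7 arrays in turn (adjusted p = 0.053 to 0.12) and that of Mrps28 without recipient replicates 1, 2 or 3 or wild-type replicates 1 or 2 (adjusted p = 0.069 to 0.12). Respiratory chain genes had no call among 27, with a median of 0.148 and 21 positive. The list of cytosolic ribosomal proteins had none among 16, with a median of 0.21. Outside these lists, and named after their values were seen, Mrps21 of the mitochondrial and Rpl11 of the cytosolic ribosome were called higher. They rose by 0.41 ± 0.10 and 0.50 ± 0.12 (adjusted p = 0.04 and 0.043). Both lost the call without each of the 7 arrays in turn (adjusted p up to 0.15 and 0.19). Of 25 proteasome genes Psmb6, a catalytic subunit, rose (0.58 ± 0.13, adjusted p = 0.04), a call lost without recipient replicates 1, 2 or 3 or wild-type replicates 1, 2 or 3 (adjusted p = 0.081 to 0.16), and of 23 genes of endoplasmic reticulum stress only Calr.

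Several called genes outside the lists act in the same organelles and, apart from Samm50, are named here after their values were seen. Samm50, which inserts proteins into the outer mitochondrial membrane, read 1.888, 1.816 and 1.827 in recipients and 1.543, 1.672, 1.636 and 1.605 in wild type (0.76 ± 0.13, adjusted p = 0.0087). One of its other 2 probe sets went the other way, the call was lost when all 3 were averaged (adjusted p = 0.3), and it was lost without recipient replicate 1 (adjusted p = 0.076). Timm13, a chaperone of the space between the membranes, rose by 0.64 ± 0.12 (adjusted p = 0.014), Shmt2, the mitochondrial serine hydroxymethyltransferase, by 0.67 ± 0.12 (adjusted p = 0.0087), and the tricarboxylic acid cycle enzymes Fh1 and Mdh2 by 0.52 ± 0.11 and 0.55 ± 0.13 (adjusted p = 0.022 and 0.043). Rpn1 and Dad1, subunits of the enzyme that attaches sugars to new proteins in the endoplasmic reticulum, rose by 0.54 ± 0.09 and 0.57 ± 0.13 (adjusted p = 0.0087 and 0.04). Of these 7 genes only Rpn1 kept its call in all 7 fits with an array left out. The largest adjusted p among those fits was 0.076 for Samm50, 0.069 for Timm13, 0.067 for Shmt2, 0.087 for Fh1, 0.2 for Mdh2 and 0.16 for Dad1.

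Among the other large rises, Erdr1, a gene first described in erythroid leukaemia cells, read 2.257, 2.358 and 2.325 in recipients and 1.927, 2.017, 1.877 and 2.106 in wild type and rose 2.15-fold (1.10 ± 0.16, adjusted p = 0.0043). Selenoh, a selenoprotein of the nucleus, read 1.705, 1.703 and 1.699 against 1.34, 1.524, 1.267 and 1.484 (0.99 ± 0.16, adjusted p = 0.0079), and Ift27, a small GTPase of transport in cilia, read 1.056, 1.056 and 1.045 against 0.704, 0.79, 0.798 and 0.839 (0.90 ± 0.14, adjusted p = 0.0079). All 3 were called in each of the 7 fits with an array left out, though with all probe sets averaged Erdr1 was at 0.702 (adjusted p = 0.0077) and Ift27 at 0.541 (adjusted p = 0.0067). Ide, the insulin-degrading enzyme, rose by 0.71 ± 0.12 (adjusted p = 0.0087) and was called in those 7 fits, but not with its 5 probe sets averaged (0.411, adjusted p = 0.14). G0s2, an inhibitor of the lipase that breaks down stored fat, rose 2.51-fold, with 1.755, 1.517 and 1.344 against 1.205, 1.141, 1.11 and 1.101 (1.33 ± 0.23, adjusted p = 0.0087). It lost the call without recipient replicate 1 (adjusted p = 0.07). Tjp1 (ZO-1, a tight junction scaffold) rose by 0.94 ± 0.16 (adjusted p = 0.0087) and Gpc1 (glypican-1) by 0.81 ± 0.17 (adjusted p = 0.027). Gpc1 was the only call among 24 tested genes for GPI-anchored proteins, whose median was -0.119, and none of 28 genes of anchor synthesis was called (median 0.041). In 7 of the 28 the arrays did not overlap, against 13.9% of all genes. The largest differences of that list were those of Pigq at -0.66 ± 0.22 and Pigf at 0.42 ± 0.11 (adjusted p = 0.17 and 0.083), both without overlap. The calls were lost for Tjp1 without recipient replicate 1 (adjusted p = 0.054) and for Gpc1 without recipient replicates 1 or 2 or wild-type replicates 1, 2 or 4 (adjusted p = 0.053 to 0.15). The rest of the 15 largest rises were Psma8, Tmem45a2, 1700006J14Rik and 2610316D01Rik, at 0.78, 0.97, 1.36 and 1.08 (adjusted p = 0.012, 0.024, 0.043 and 0.022). They were called in 5, 0, 1 and 3 of the 7 fits, with adjusted p of up to 0.081, 0.11, 0.2 and 0.14. In wild type Psma8 and 2610316D01Rik averaged 0.327 and 0.205, below the array median of 0.387, so their differences are approximate.

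Prkcb gave the smallest adjusted p of the comparison. This gene for protein kinase C beta, a signalling enzyme downstream of the B cell receptor that other blood cells also express, read 1.686, 1.703 and 1.656 in recipients and 1.92, 2.043, 1.963 and 1.97 in wild type. It fell 1.96-fold (-0.97 ± 0.10, adjusted p = 0.00011), both of its other probe sets went the same way, and it was called in all 7 fits with an array left out (adjusted p up to 0.0026). Asprv1, an aspartic protease, fell 2.52-fold, from 1.45, 1.316, 1.376 and 1.334 to 1.003, 1.053 and 0.845 (-1.33 ± 0.20, adjusted p = 0.0053). Sowaha, a gene of ankyrin repeats, fell 2.25-fold (-1.17 ± 0.18, adjusted p = 0.0057), and Irs1, the insulin receptor substrate, 1.87-fold (-0.91 ± 0.15, adjusted p = 0.0087). All 3 kept the call in the 7 fits. Pla2g7, a secreted lipase that inactivates platelet-activating factor, read 1.165, 1.217 and 1.068 against 1.573, 1.51, 1.485 and 1.424 (-1.16 ± 0.21, adjusted p = 0.012), and lost the call without recipient replicates 1 or 3 or wild-type replicate 1 (adjusted p = 0.061 to 0.067). Dnaja4, a co-chaperone, and Marchf8, a ubiquitin ligase that removes surface receptors, fell by 0.87 each (adjusted p = 0.017 and 0.036), with adjusted p of up to 0.11 and 0.13 when arrays were left out.

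Genes of DNA damage and death gave 1 call. Pmaip1 (Noxa), a p53 target that promotes apoptosis by binding Mcl1, read 0.513, 0.678 and 0.662 in recipients and 1.052, 0.892, 0.91 and 0.801 in wild type and fell 1.98-fold (-0.98 ± 0.22, adjusted p = 0.04). The call was lost without recipient replicates 1, 2 or 3 or wild-type replicates 1, 2 or 3 (adjusted p = 0.069 to 0.18). It was the only call among 22 tested genes of the p53 response (median -0.099) and among 14 of the Bcl2 family (median -0.039). The mean log2 value over the p53 list was 3.51, 3.572 and 3.491 in recipients and 3.724, 3.661, 3.613 and 3.611 in wild type, without overlap. In 6 of the 22 the arrays did not overlap, against 13.9% of all genes. Cdkn1a (p21) was at 0.05 (adjusted p = 0.92), Mdm2 at -0.08 (adjusted p = 0.83) and Bbc3 (Puma) at -0.11 (adjusted p = 0.83). DNA repair genes had no call among 23 (median 0.074) and genes of senescence and growth arrest none among 12 (median 0.007). Among 19 antioxidant genes Cat (catalase), abundant in red cell precursors, fell by 0.62 ± 0.14 (adjusted p = 0.035), and among 18 of the Toll-like receptor list Tlr1, a receptor for bacterial lipoproteins, fell by 0.62 ± 0.14 (adjusted p = 0.034). The call of Cat was lost without each of the 7 arrays in turn (adjusted p = 0.052 to 0.16) and that of Tlr1 without recipient replicates 1, 2 or 3 or wild-type replicates 1, 2 or 4 (adjusted p = 0.061 to 0.16).

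No gene of the cell cycle lists was called. None of 23 mitosis genes was called, with a median of 0.03 and list means of 5.435, 5.585 and 5.671 in recipients and 5.4, 5.469, 5.625 and 5.671 in wild type, and Mki67 was at 0.00 ± 0.14. None of 23 DNA replication genes of the list was called either (median 0.118), the largest difference being that of Gins1 at 0.43 (adjusted p = 0.13). Outside these lists, and named after their values were seen, the cell cycle genes Skp2 and Rfc1 were called higher. They rose by 0.46 ± 0.10 and 0.49 ± 0.10 (limma, adjusted p = 0.039 and 0.027). Skp2 was called in 2 and Rfc1 in 1 of the 7 fits with an array left out. A p above the threshold does not show that the groups were equal, and with a median SE of 0.144 small shifts of single genes could not be called. No gene was called in the lists of T and NK cells (27 tested, median -0.119), megakaryocytes and platelets (16, -0.021), integrins and homing receptors (20, -0.18), marrow stroma and niche (17, -0.044), glycolysis and hypoxia (20, 0.062), cholesterol and fatty acid synthesis (21, 0.118), ribosome biogenesis (22, 0.121) or histones (4, 0.228). Among these the list means did not overlap between the groups for integrins and homing receptors (difference -0.152) and for cholesterol and fatty acid synthesis (0.116). The homing receptor Cxcr4, which holds cells in the marrow, was at -0.16 (adjusted p = 0.64), and its ligand Cxcl12 at 0.46 (adjusted p = 0.19). The stromal markers Col1a1 and Cdh5 were at -0.04 and -0.02.

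**Figure D4:**
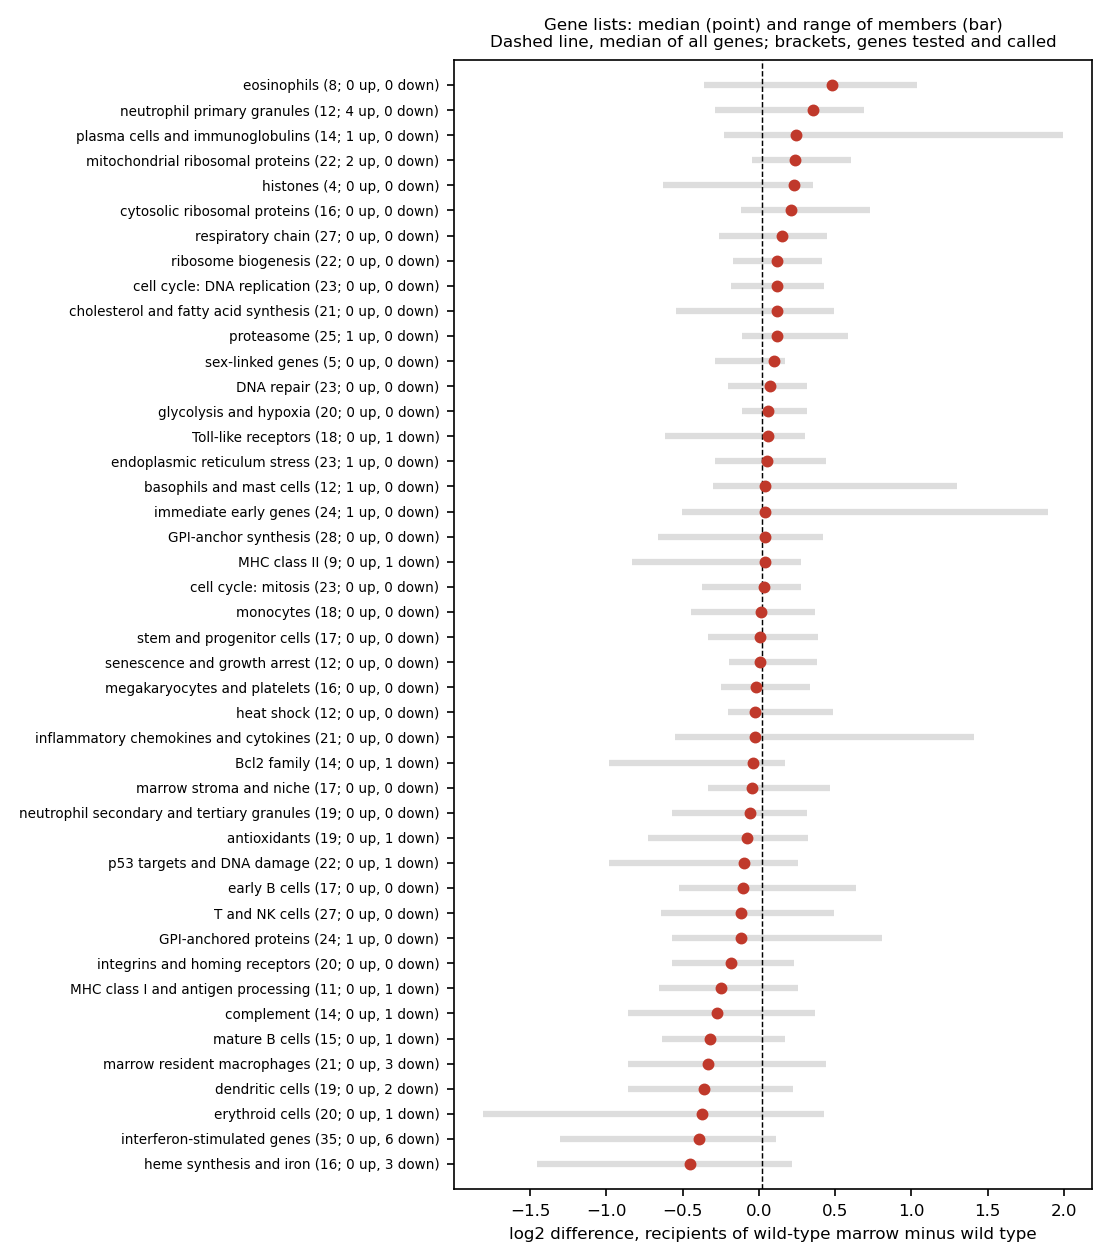
Median (point) and range (bar) of the log2 difference between recipients and wild type for the tested genes of 44 lists, with the numbers tested and called in brackets and the median of all genes, 0.023, as a dashed line. Heme synthesis, interferon-stimulated genes, erythroid cells and dendritic cells have the lowest medians, from -0.454 to -0.357, and eosinophils and neutrophil primary granules the highest, at 0.48 and 0.355.

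The batch held a second transplanted group, GPI- cells of recipients of knock-out marrow on 4 arrays. They differ from the recipients of wild-type marrow in the donor's genotype, in the sorted fraction and, as far as the labels say, in the treatment of the graft, and were set against the same 4 wild-type arrays, so the values of the 2 comparisons are not independent. In that comparison 1765 genes (12.4%) were called, 975 (6.84%) higher and 790 (5.55%) lower. Of the 64 genes that rose in recipients of wild-type marrow, 62 had the same sign there and 42 were called higher. Of the 56 that fell, 47 had the same sign, 30 were called lower and 3 were called higher. These genes were picked for their distance from the same wild-type arrays, which favours the same sign in both comparisons. The counts therefore do not measure agreement between the recipient groups. In recipients of knock-out marrow the median over the erythroid list was -1.479 beside -0.374 in recipients of wild-type marrow, and over heme and iron -0.985 beside -0.454. Slc25a37 was at -1.63 beside -1.46, Prkcb at -1.06 beside -0.97, and C1qa at -2.08 beside -0.86. Fos was at 3.11 beside 1.90 and Fcer1a at 2.38 beside 1.30. The interferon list had a median of -0.08 beside -0.395, with Irf9 at -0.10 (adjusted p = 0.6) beside -0.67. The 3 genes called the opposite way were Siglech, Fcer2a and Shisa5, the last named after its value was seen and called in only 1 of the 7 fits with an array left out. Siglech was at 1.37 (adjusted p = 2e-05) beside -0.86, Fcer2a at 0.75 (adjusted p = 0.00097) beside -0.64, and Shisa5 at 0.64 (adjusted p = 5.1e-05) beside -0.45. Primary granule genes had a median of -0.217 beside 0.355, with Ctsg at 0.14 (adjusted p = 0.44) beside 0.69. T and NK cell genes had 1.167 beside -0.119, and mitosis genes -0.787 beside 0.03. The difference between the recipient groups was not tested for these values.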

How the data were processed

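Values were the authors' deposited table of Affymetrix arrays, on a log10-like scale. The base of 10 was read from the values and is not stated in the sources used here. Sorted values of the 11 arrays of batch 2 were identical, so the deposited log10 values had been quantile-normalized. Per the submitters' processing notes GCOS, the scanner maker's program, was used, at a step they do not name, and the background correction was not stated. Dividing by log10(2) turned the values into log2, and arrays were centred on their medians. Of 45101 probe sets, 64 controls were left out; 34945 of the rest carry 1 symbol, 932 several and 9160 none, and 34741 were matched to RefSeq (GRCm38.p6), which updated symbols. Probe sets at or above the 40th percentile of their array on at least 3 arrays were kept (32426), and the brightest with 1 symbol stood for each gene. One limma fit (version 3.58.1, R 4.3.3, eBayes with intensity trend) over all 17 arrays and 5 groups, with 12 residual degrees of freedom, gave each contrast. Single quality measures were compared by exact permutation of arrays. Precision is limited by the number of arrays. The fit was tested on simulated data. Genes were named by rule: the 15 largest rises and falls among called genes whose groups do not overlap and whose brighter group lies above its arrays' median; in each list up to 4 called genes, or the 2 largest differences where none was called; and Piga, the sort markers and sex-linked genes. Others of a list, and genes said to be chosen after their values were seen, are named besides. The comparison, the gene lists and the rule were chosen with earlier results of these data known. The alternatives tried were an offset, cyclic loess, other filters, the mean of probe sets, fewer arrays in the fit, no trend, array weights, a replicate block and leaving out each array.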

Additional observations from a re-analysis of the deposited data

Results flagged for a closer look

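Of 100 named genes screened, 4 had a wild-type array that stood apart from the other 3 by Dixon's test, about what chance gives (1 in 20). Wild-type replicate 3 was low for Siglech, at 0.725 against 0.848 to 0.863 on the others, which lies above the recipient arrays all the same. Wild-type replicate 2 was high for Acaca (acetyl-CoA carboxylase), at 0.747 against 0.603 to 0.619. Wild-type replicate 1 was low for Mrpl18, at 1.409 against 1.501 to 1.502. Kdm5d read 0.017 on wild-type replicate 3 and 0.182 to 0.207 on the others, all near the floor. Groups of 3 arrays were not screened.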

How the results depend on the processing

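As reported, 64 genes were called higher and 56 lower. On the arrays of batch 2 only, 38 were higher and 61 lower, and on the 7 arrays only, 90 were higher and 147 lower. Without the intensity trend 32 and 27 were called, and with array weights 181 and 172. With the replicate number as a block 24 were higher and 21 lower, and 41 of the 120 calls were kept. Deviations of same-numbered arrays of the groups correlated at 0.098, 0.044 and -0.031, and those of other pairs at -0.149 to 0.126. With so few arrays these values cannot show whether same-numbered arrays were handled together. With the Actb covariate, chosen after seeing the data, 53 were higher and 107 lower. Leaving out 1 array gave from 9 to 46 higher and from 12 to 44 lower. The offset, cyclic loess, either other filter and the mean of probe sets kept both counts within 1.5 times. Of the values recomputed for named genes, 1473 kept their direction and their side of the threshold, 280 lost the threshold, 31 gained it and 13 changed sign. The sign changes were all in sex-linked genes that were not called. Eif2s3y turned to -0.015 with array weights and ranged from -0.0483 to 0.29 with 1 array left out. Kdm5d turned to -0.0257 with the mean of probe sets and ranged from -0.0504 to 0.247 with 1 array left out. Zfy2 turned to 0.0591 with array weights and 0.119 with the Actb covariate, and ranged from -0.177 to 0.124 with 1 array left out. Xist turned to 0.423 with the Actb covariate. Of the 120 called genes, 119 kept their sign with the mean of probe sets. Of list medians, 738 stayed within the spread between arrays and 54 moved. In all 18 alternatives 11 genes were called: Asprv1, Ctsg, Erdr1, Ift27, Irf9, Oasl2, Prkcb, Rpn1, Selenoh, Sowaha and Trim30d. The causes of these shifts were not tested.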
